A study of Caenorhabditis elegans with 4 samples.

Results

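Chromosome V, the longest of the 6 chromosomes of the nematode Caenorhabditis elegans, carried 469 of the 2590 regions listed as bound by R02D3.7. The members are all peaks of the combined list that lie on V, with positions on WormBase WS190. R02D3.7, named rcat-1 in RefSeq, is called a transcription factor in the labels. It was mapped by ChIP-seq, in which DNA fragments crosslinked to a protein are collected with an antibody and sequenced. The strain OP218 is unc-119(ed3) and carries the bombarded transgene wgIs218, in which R02D3.7 is fused to TY1, EGFP and FLAG tags beside an unc-119 marker. All libraries came from L4 hermaphrodites of this single strain, grown at 20 °C. There were 2 ChIP libraries, made with antibodies against GFP from extracts of whole worms, and 2 input libraries. The input libraries contributed no values here, and signals of different tissues are mixed in every list. The labels do not say whether replicates 1 and 2 were separate cultures, so a difference between them may be technical.

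The autosomes of this worm have a gene-dense centre with little recombination and a pair of arms with more recombination, more repeats and more young gene families. Chromosome arms are held at the nuclear envelope more often than centres. Chromosome V is known for large families of chemoreceptor, F-box and nuclear hormone receptor genes on its arms. No annotation or sequence of WS190 was used here, so peaks are given by position, without gene names, and centre and arms are defined by distance along the chromosome alone. The centre is the middle 50% of the span, and the left and right arm are the 25% on either side of it.

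The authors' peak caller, PeakSeq, gave each peak a q-value, which is a p-value corrected for multiple testing. Strength below means -log10 q. Because q depends on read depth, which is unknown here, strengths of different lists are set side by side and not compared as binding. The single libraries listed 240 peaks on V in replicate 1 and 155 in replicate 2, which was 19.2% and 19.1% of each list, next to 18.1% of the combined list. Combined peaks on V covered 138 kb and stood at 22.5 per Mb, between X (20.1), the lowest of the 6 chromosomes, and IV (22.8), with III (38.1) the highest. Given the summed spans, 539 peaks would fall on V, so the number was 0.870 times this expectation (95% interval 0.800 to 0.944; two-sided exact binomial test, p = 0.00064). With chromosome III left out the ratio was 0.941 (exact binomial test, p = 0.129), and it was 0.922 in replicate 1 (p = 0.164) and 0.919 in replicate 2 (p = 0.26). The low number on V relative to span thus did not pass the test once III was removed or in either single library. Peaks lie in runs and are not independent replicates, so all p-values over peaks are too small.

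The strongest peaks on V were the same regions in both libraries. The first lay at 5683732 to 5685891, with q-values of 4.72e-224 (combined), 1.48e-144 (replicate 1) and 8.63e-100 (replicate 2). The second, at 19189081 to 19190960 near the right end, had q-values of 2.43e-168, 9.99e-110 and 6.25e-58 in the same order. The next, at 11238792 to 11239952 near the middle, had 5.45e-141, 1.23e-102 and 1.90e-48. These held ranks 1, 2 and 3 among V peaks in all 3 lists, and ranks 4, 10 and 15 of the whole combined list. The peak of rank 4, at 3759032 to 3760308 in the left arm, was weaker by far, at 2.67e-94, 2.44e-59 and 5.80e-34. It was followed by peaks at 8024293 to 8025594 (2.63e-85, 1.40e-61 and 1.56e-25) and 6838017 to 6839349 (6.67e-83, 1.65e-52 and 5.40e-30). Strength in the combined list therefore dropped steeply from rank 1 to rank 4, at 223, 168, 140 and 93.6. It dropped slowly from rank 4 to rank 20, which lay at 12400210 to 12401171 (6.36e-49, 4.18e-29 and 1.59e-20).

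The other peaks among the 20 strongest on V were spread over its whole length. Those right of the middle lay at 11763970 to 11765065, 12727334 to 12728952, 14990482 to 14991761, 15084790 to 15086189, 15569342 to 15570383, 19118873 to 19119738 and 20474041 to 20475166. Left of the middle they lay at 103996 to 105189, 1196739 to 1197925, 3742919 to 3744082, 9342908 to 9344774, 9346467 to 9347691 and 9930369 to 9931168. The first of these stood 0.502% of the way along the chromosome, and the peak at 20474041 stood 98.3% along, so strong peaks reached both ends. The left arm held 4 of the 20, the left part of the centre 6, its right part 7 and the right arm 3. All 20 overlapped a peak of both replicates and were 800 to 2160 bp wide, and their partners ranked no lower than 21 among V peaks in replicate 1 and 22 in replicate 2. The 20 were picked by q-value in the list that combines both libraries, which favours a partner in each. In all 20 the strength was highest in the combined list and lowest in replicate 2. Of the 100 strongest combined peaks of the genome, 21 were on V, which held 18.1% of all combined peaks.

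**Figure D1:**
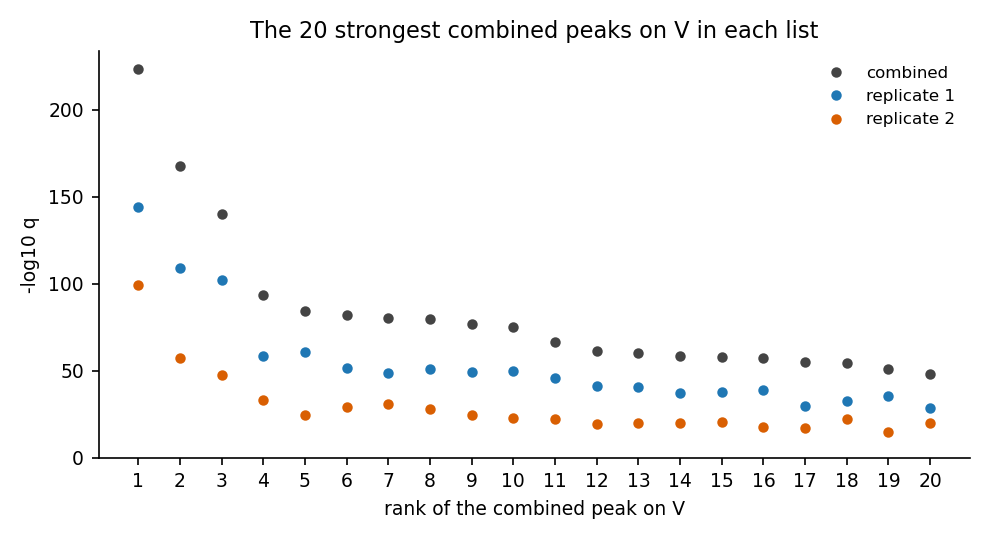
Strength (-log10 q) of the 20 strongest combined peaks on V, by rank, with the strength of the overlapping peak in each replicate list. Each point is 1 peak in 1 list. The first peak stands at 223, 144 and 99.1 in these lists, and the order combined, replicate 1, replicate 2 holds at every rank.

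Peaks on V were denser in the centre than in the arms. The central 50% of the span held 296 of the 469 peaks (63.1%, exact 95% interval 58.6 to 67.5; exact binomial test against 50%, p = 1.47e-08), where the whole combined list had 56.4%. It held 161 of 240 peaks in replicate 1 (67.1%, 60.7 to 73.0) and 105 of 155 in replicate 2 (67.7%, 59.8 to 75.02). Density was 28.4 peaks per Mb in the centre and 16.6 in the arms, a ratio of 1.71, and the ratio was 2.04 in replicate 1 and 2.10 in replicate 2. Covered length differed likewise, with 0.877% of the centre and 0.448% of the arms under combined peaks. The share was no lower among strong peaks. Of the 71 V peaks with a q-value under 1e-10, 51 were central (71.8%, 59.9 to 81.9), next to 245 of the 398 others (61.6%, 56.6 to 66.4).

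The profile was not a smooth arch, however. The densest stretches were the margins of the centre, with 38.4 combined peaks per Mb between 25 and 30% of the span and 35.5 between 70 and 75%, against 26.3 in between. On the remaining chromosomes together the same stretches held 31.3, 26.7 and 29.5 peaks per Mb. Of the 40 combined peaks on V between 25 and 30%, 9 lay within 8813 bp, at 6220973 to 6229785. Another 5 lay within 3606 bp, at 6097723 to 6101328. In replicate 1 the same margins of V were the richest bins of 5% of the span, with 23 and 21 peaks. In replicate 2 the bin from 70 to 75% was the richest, with 19. There, however, 15 peaks lay between 40 and 45% and 14 between 25 and 30%. Outside the centre, the left arm of V held 20.0 peaks per Mb and the right arm 13.2. The right arm carried 14.7% of all combined peaks on V, and on the single other chromosomes it carried 19.8 to 33.8%. In replicate 1 it carried 15.8% and in replicate 2 16.8%, and chromosome I was lower than V in both (13.9% and 12.2%).

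The left arm held 104 combined peaks and the right arm 69, and this imbalance passed the test in the combined list alone. The left share of arm peaks was 60.1% (exact 95% interval 52.4 to 67.5; exact binomial test, p = 0.00954), but 51.9% in replicate 1 (p = 0.822) and 48% in replicate 2 (p = 0.888). Among combined peaks with q under 0.001 it was 53.6% (exact binomial test, p = 0.543). Of the 104 peaks in the left arm, 58 overlapped no replicate peak (55.8%), against 43.5% in the right arm and 41.7% and 46.2% in the left and right parts of the centre. Median strength was 3.00 in the left arm, and 3.56 to 3.74 in the other 3 parts.

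Counted in windows of 1 Mb, the number of combined peaks ranged from 4 to 46 over the 20 full windows, with a median of 23.5. The window from 6 to 7 Mb was the richest, with 46 peaks in the combined list, 22 in that of replicate 1 and 20 in that of replicate 2. Next came the window from 8 to 9 Mb, with 31, 17 and 14. The windows from 9 to 10 and from 15 to 16 Mb had 29 combined peaks each. At the other end, the window from 17 to 18 Mb had 4 combined peaks and 1 in each replicate. The window from 2 to 3 Mb had 5 combined peaks, 2 in replicate 1 and 0 in replicate 2, and the one from 18 to 19 Mb had 11, 9 and 6. The windows with 4 and 5 combined peaks lay in different arms, and neither had more than 2 peaks in a single library. The variance of the window counts was 4.03 times their mean, below II (4.71) and above the other chromosomes (1.93 to 2.52). This order was not that of the single lists. In replicate 1 the ratio was 2.60 on V, below III (3.84), II (3.40) and IV (2.79), and in replicate 2 it was 3.71 on V, next to 3.69 on II and 3.06 on III. Over the 20 full windows, the number of combined peaks and the number of those with q under 1e-10 had a Spearman's rho of 0.75 and a Pearson's r of 0.61, given as a description, since both come from the same list. The window from 14 to 15 Mb had most strong peaks, 11 of its 28 combined peaks, although 4 passed that limit there in replicate 1 and 1 in replicate 2.

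**Figure D2:**
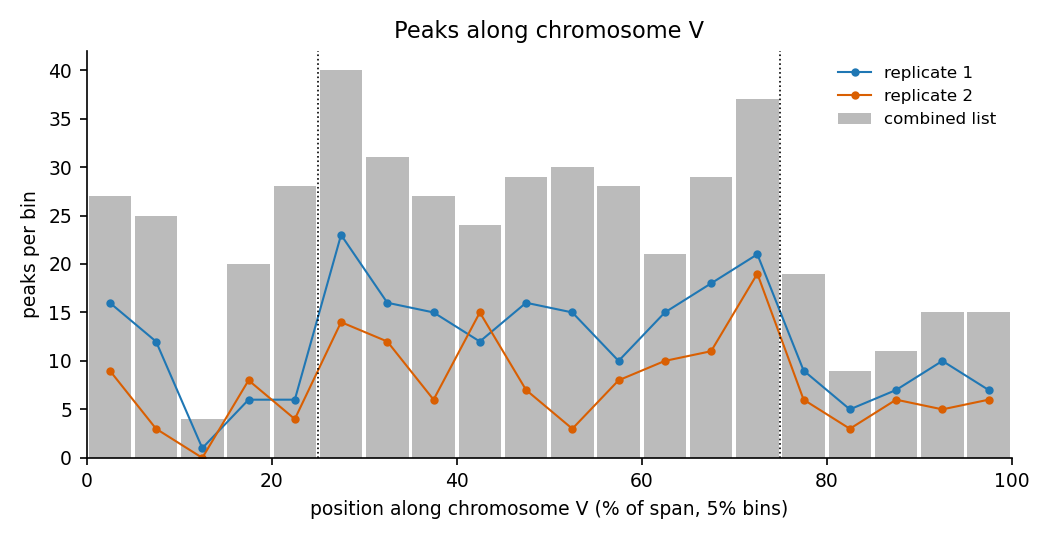
Number of peaks in bins of 5% of the span of chromosome V, from left to right, for the combined list (bars) and each replicate list (points joined by lines). Dotted lines mark the central 50%. The combined list peaks at 40 between 25 and 30% and at 37 between 70 and 75%, and falls to 4 between 10 and 15%.

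Chromosome V had the highest central share of the 6 chromosomes in each of the 3 lists, although its lead over III was small. The other chromosomes had 1165 of 2121 combined peaks in the centre (54.9%), so V lay 8.19 percentage points above them (Newcombe 95% interval 3.26 to 12.9; two-sided Fisher's exact test, adjusted p = 0.00832 over 7 comparisons of V with the rest). The difference was 10.9 points in replicate 1 (4.02 to 17.3; Fisher's exact test, adjusted p = 0.011) and 7.59 points in replicate 2 (-0.955 to 15.4; adjusted p = 0.41). Defined as the central 40% of the span, the centre held 46.7% of V peaks, above the 40% that length gives, but the difference from the rest was 2.61 points (Fisher's exact test, adjusted p = 0.725). Whether the excess of V over other chromosomes passed the test therefore depended on where the centre was taken to end. The right arm held 14.7% of combined peaks on V and 24.5% on the other chromosomes together. For the left arm these shares were 22.2% and 20.6%. The cause of the excess was not tested.

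Against single chromosomes, the central share on V was higher than on IV by 11.4 points (Fisher's exact test, p = 0.00456 after adjustment for 5 comparisons), X by 10.3 (adjusted p = 0.00852), II by 9.23 (adjusted p = 0.0115) and I by 8.38 (adjusted p = 0.0132). With the central 40% as the centre none of these 4 differences passed (Fisher's exact test, adjusted p = 0.166 to 0.891), at 7.25 points for IV, 5.40 for X, 1.88 for I and 0.58 for II. With the centre as the middle 50%, the difference from III was 3.38 points, with an interval of -2.68 to 9.39 (Fisher's exact test, adjusted p = 0.296). With the central 40% it was -0.63 points, so III then stood above V. In replicate 1 the differences from IV, X and I passed the test and that from II did not (Fisher's exact test, adjusted p = 0.0509). None passed in replicate 2, where the adjusted p of Fisher's exact test ranged from 0.0785 for II and IV to 0.731 for III.

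**Figure D3:**
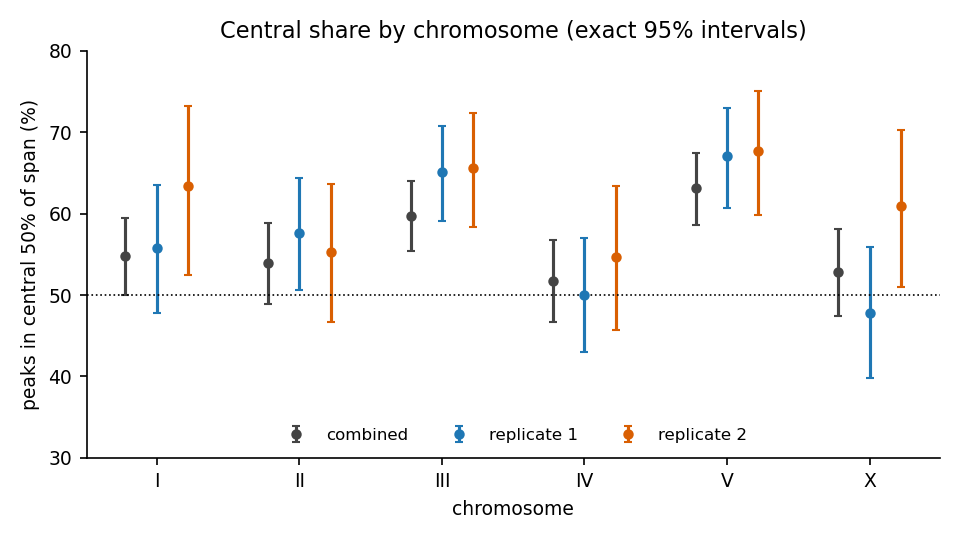
Central share (%), the peaks in the middle 50% of the span, for each chromosome and list, with exact 95% binomial intervals, which cover counting error only. The dotted line marks 50%. V stands at 63.1% (combined), 67.1% (replicate 1) and 67.7% (replicate 2), and III is next in each list.

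Most peaks on V were narrow and a few were broad. Width ran from 3 to 2160 bp, with a median of 180 bp and quartiles of 84 and 355 bp. The median was 182 bp in the centre and 179 bp in the arms. On the other chromosomes medians ran from 166 bp on X to 239 bp on I. The single libraries had medians of 200 and 209 bp on V, next to 263 and 246 bp over all peaks of the rest. Single chromosomes did not all lie above V. In replicate 1 their medians ran from 199 bp on X to 389 bp on I, with III at 200 bp. In replicate 2 they were 200 bp on II, III and X, 317 bp on IV and 364 bp on I. The widest peaks were the strongest one at 5683732 and the second strongest at 19189081 (1880 bp), then those at 9342908 (1867 bp), 12727334 (1619 bp) and 13625072 to 13626677 (1606 bp). The narrowest spanned 3 bp, at 15052600 to 15052602. The next width, 4 bp, was shared by 5 peaks, of which those with the smallest q-values lay at 3195343 to 3195346 and 12548682 to 12548685. No peak of 3 or 4 bp overlapped a replicate peak.

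Peaks shorter than 50 bp numbered 82 (17.5%, background 16.0% of all combined peaks), and peaks of at least 500 bp numbered 76 (16.2%, background 17.0%). Neither share was distinguishable from the rest of the genome. The differences were 1.78 points for short peaks (interval -1.77 to 5.77; Fisher's exact test, adjusted p = 0.725) and -1.004 points for wide ones (-4.49 to 2.92; adjusted p = 0.741). In between, V had 138 peaks of 100 bp to under 200 bp (29.4%, against 23.7% elsewhere) and 122 of 200 bp to under 500 bp (26.0%, against 34.04% elsewhere), a shift that was seen after the values were known and was not tested. Width and strength went together on V, with Spearman's rho of 0.82 across 469 peaks, which are not independent and whose q-value and width come from the same reads. The widest peak among the weak ones, 1034 bp at 264949 to 265982, had a q-value of 0.0079 and still overlapped a peak of both replicates.

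**Figure D4:**
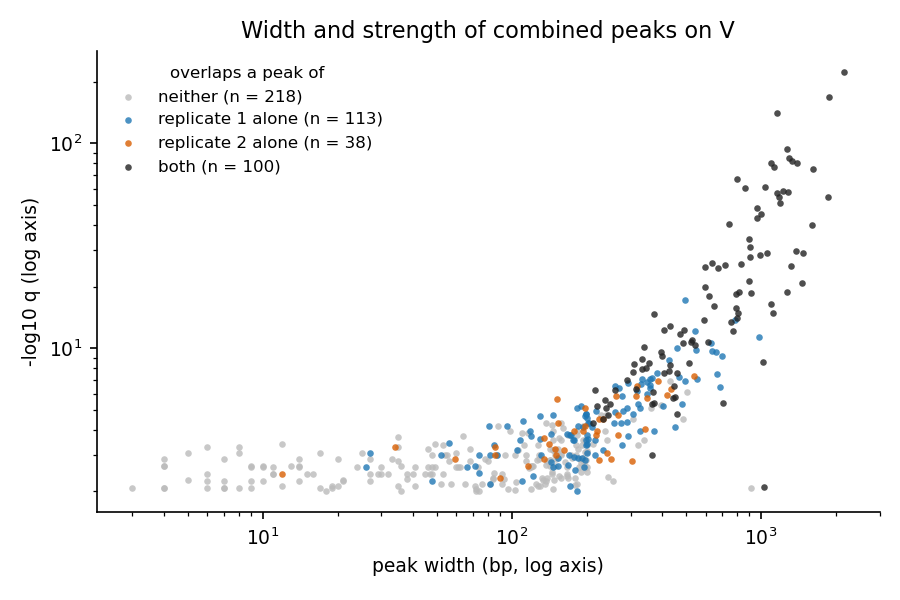
Width (bp) and strength (-log10 q) of the 469 combined peaks on V, both on log axes, coloured by the replicate lists in which they overlap a peak. The 100 peaks found in both replicates fill the upper right, with a median width of 690 bp, and the 218 found in neither lie at the lower left, with a median of 93.5 bp.

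A share of 15.1% of V peaks had a q-value under 1e-10 (71 peaks, background 14.3%), and the difference from the other chromosomes was 0.994 points (-2.35 to 4.80; Fisher's exact test, adjusted p = 0.741). In the single libraries, 46 of 240 V peaks passed the same limit in replicate 1 (19.2%) and 27 of 155 in replicate 2 (17.4%), next to 16.7% and 17.6% elsewhere. Median strength on V was 3.39, the lowest of the 6 chromosomes, whose medians all lay between that value and 3.64.

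Overlap with the single libraries, counted from 1 bp, did not differ detectably between V and the other chromosomes. Of the 469 peaks, 100 were found in both replicates (21.3%, background 21.2%, Wilson 95% interval 17.9 to 25.2), 113 only in replicate 1 (24.1%) and 38 only in replicate 2 (8.10%). The other 218 were found in neither (46.5%, 42.01 to 51.01, background 48.3%). The differences from the remaining chromosomes were 0.153 points for both (-3.75 to 4.43; Fisher's exact test, adjusted p = 0.95) and -2.17 points for neither (-7.12 to 2.82; adjusted p = 0.725). These intervals leave room for differences of several points. Single chromosomes other than V ran from 41.6% (II) to 62.2% (I) for neither, and from 17.4% (X) to 23.8% (II) for both.

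The 100 V peaks shared by all lists had a median strength of 14.7 and reached down to 2.10. Those found in neither had a median of 2.66 and reached up to 6.92. The strongest of the latter lay at 8039235 to 8039665 (q = 1.19e-07), followed by peaks at 11979959 to 11980463 (7.36e-07), 6226261 to 6226659 (4.97e-06), 12491072 to 12491432 (7.67e-06) and 14696802 to 14697030 (1.91e-05). By rank in the whole combined list, 21 of 21 V peaks among the first 100 and 30 of 31 among the next ranks up to 250 had a partner in each library. So had 28 of 40 from there to rank 500, 19 of 88 from there to rank 1000 and 2 of 289 beyond. Elsewhere the corresponding shares were 100%, 98.3%, 73.3%, 21.8% and 0.692%. Since the ranks come from the list that combines these same libraries, a high rank favours a partner in each, and the shares are a description. The strongest V peak not found in both, at 10968889 to 10969382, had a combined q-value of 6.92e-18 and 4.80e-13 in replicate 1, with no peak listed in replicate 2. As each list ends at a fixed q-value, a region without a listed partner may still be bound in that library.

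In 100 regions on V, a combined peak overlapped a peak of both libraries. Both partners overlap the same combined peak, so their midpoints had to lie near each other, and the distances are given as a description. In these regions, the midpoints of the replicate peaks lay a median of 58.5 bp apart (quartiles 33.1 and 118 bp), and 71 were within 100 bp. Elsewhere the median was 62.5 bp over 449 regions. The combined peak was wider than the replicate 1 partner in 86 and than the replicate 2 partner in 98 of the 100, with medians of 690, 523 and 350 bp. Read from the single lists, 98 of the 240 V peaks of replicate 1 overlapped a replicate 2 peak (40.8%, Wilson interval 34.8 to 47.1), and 104 of the 155 of replicate 2 overlapped a replicate 1 peak (67.1%, 59.4 to 74.0). On the other chromosomes these shares were 43.4% and 68.4%.

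A few replicate peaks on V had no combined counterpart, 21 in replicate 1 (8.75%, against 5.24% elsewhere) and 8 in replicate 2 (5.16%, against 5.19%). All were weak. The strongest in replicate 1 lay at 14353896 to 14353980 (q = 0.00321), 10722146 to 10722257 (0.00323) and 16356673 to 16356820 (0.00344). In replicate 2 they lay at 11425702 to 11425715 (q = 0.00466), 13358564 to 13358597 (0.00474) and 6044109 to 6044111 (0.00747). None of these 6 overlapped a peak of the other replicate.

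Within V, the peaks of the centre did not differ detectably in kind from those of the arms. Peaks found in both replicates made up 22.3% of the centre and 19.7% of the arms, a difference of 2.64 points (-5.23 to 9.94; Fisher's exact test, adjusted p = 0.56 over 5 comparisons). Peaks with q under 1e-10 made up 17.2% and 11.6%, a difference of 5.67 points (-1.16 to 11.8; Fisher's exact test, adjusted p = 0.378). Those found in neither replicate made up 43.9% and 50.9%, a difference of -6.95 points (-16.2 to 2.38; Fisher's exact test, adjusted p = 0.378). Those of at least 500 bp made up 17.6% and 13.9%, a difference of 3.69 points (-3.42 to 10.1; Fisher's exact test, adjusted p = 0.454). These intervals leave room for sizeable differences. The remaining comparison, of peaks with a close neighbour, is given below and depended on the setting.

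Peaks on V were unevenly spaced, with many close pairs and long empty stretches. The gap between neighbouring combined peaks had a median of 17.5 kb and a mean of 44.2 kb, and its coefficient of variation, 1.66, was the highest of the 6 chromosomes (1.19 on X to 1.59 on I). In replicate 1 the coefficient was 1.52 on V, below IV (1.53), and in replicate 2 it was 1.69 on V, above IV (1.61). A gap of at most 2 kb separated 105 of the 468 neighbouring pairs (22.4%, against 19.1% elsewhere), and 58 gaps exceeded 100 kb (12.4%, against 10.02%). Some single chromosomes equalled V, however. Gaps of up to 1.995 kb made up 22.4% on III and 22.7% on IV. Over 100 kb lay 55 of 397 gaps on IV and 50 of 355 on X, both larger shares than on V. In the combined list, the longest gap of any chromosome, 544 kb, ran from 2130105 to 2673990 in the left arm of V. The next on V were 494 kb from 17363656 to 17857995 and 461 kb from 17951426 to 18412376, both in the right arm. Each of these 3 gaps held 1 peak of replicate 1 and none of replicate 2. The 5 longest gaps on V all lay outside the centre, within which the longest was 334 kb. In the list of replicate 1, the longest gap of any chromosome was on IV (1185 kb, against 1049 kb on V). In that of replicate 2 it was on V (1923 kb, against 1825 kb on IV).

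A neighbour within 2 kb was present for 176 of the 469 peaks (37.5%, background 34.4%), 3.77 points above the rest (-0.958 to 8.66; Fisher's exact test, adjusted p = 0.464). X was lowest at 19.9% and IV highest at 40.2%. In the replicate lists, the shares on V were 23.3% and 22.6%, close to the 23.6% and 21.2% elsewhere. Within V, the centre had 35.8% and the arms 40.5%, a difference of -4.65 points (-13.8 to 4.34; Fisher's exact test, adjusted p = 0.454). Direction and call both depended on the setting. With the central 40% as the centre the difference was -16.4 points (Fisher's exact test, adjusted p = 0.00138), and 55% of the peaks between 25 and 30% of the span and 56.8% of those between 70 and 75% had a close neighbour, against 28.8% in between. In the single lists it had the opposite sign, at 10.3 points in replicate 1 (Fisher's exact test, adjusted p = 0.311) and 15.6 in replicate 2 (adjusted p = 0.117).

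Linked by gaps of at most 2 kb, the 176 peaks formed 71 runs, of which 49 were pairs and 22 had 3 or more peaks. The runs of 3 or more held 16.6% of V peaks, and on other chromosomes they held 8.15 to 14.1%, a difference that was not tested. The largest run of the genome lay on V at 6220973 to 6229785, in the richest window, with 9 peaks over 8813 bp. Its strongest members were at 6224136 to 6225255 (q = 1.67e-15), 6227037 to 6228020 (4.15e-12) and 6228328 to 6228940 (1.67e-11), and 3 of the 9 overlapped a peak of both replicates and 3 of neither. A second run of 5 peaks lay at 6097723 to 6101328, with a single strong member at 6098753 to 6099563 (q = 1.20e-15). Another, of 4 peaks over 4950 bp at 4731123 to 4736072, had no peak under 1e-10, its strongest being 4731123 to 4731825 (q = 4.17e-06). Of the 71 runs on V, 31 included a peak with q under 1e-10 (43.7%), against 104 of 311 on the other chromosomes (33.4%), a difference that was not tested.

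**Figure D5:**
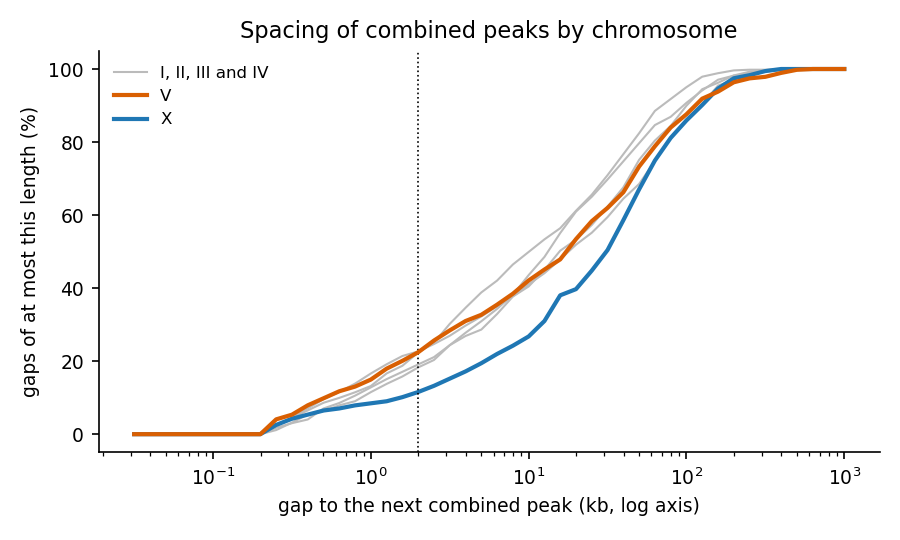
Cumulative share (%) of gaps between neighbouring combined peaks by gap length (kb, log axis), with 1 line per chromosome. The dotted line marks 2 kb, at which V has reached 22.4%. At 2 kb and at 10 kb X is the lowest line.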

How the data were processed

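The authors deposited 3 peak lists, 1 for each of the 2 ChIP libraries and 1 combined. The build is WormBase WS190 and the caller PeakSeq, per the file headers and records, and each deposited record has a q-value from the authors' caller and no other score. For the aligner, read filters, caller version, control and way of combining libraries, no information was given in the sources used here, so read depth is unknown and intervals cover counting error of peaks only. Positions, as deposited, were taken as 1-based inclusive.

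From these, width, gap between peak edges, overlap of at least 1 bp and position along the span (from base 1 to the last base under a peak of any list, 20.8 Mb on V) were computed with pandas 2.3.3 and scipy 1.17.1. The centre is the 50% of the span between the arms, judged by peak midpoints. Shares were compared with two-sided Fisher's exact tests, adjusted by Benjamini-Hochberg within families of 7, 5 and 5 tests, and numbers with exact binomial tests (threshold 0.05). The functions were tested on simulated lists. Named peaks are the 20 strongest, 5 widest and 3 narrowest on V, the 5 strongest without a replicate peak, the 3 strongest replicate peaks of each list without a combined one, and up to 3 runs, gaps, and richest and poorest windows. Other regions named were chosen after their values were seen. The regions and tests were chosen with earlier results of these data known. RefSeq's gene table, on WBcel235, served for the name rcat-1 alone.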

Additional observations from a re-analysis of the deposited data

How the results depend on the processing

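Neither direction nor call changed in 105 of 150 alternative values. The central share on V passed the test in all 9 alternatives run (46.7% to 67.7%, the lowest for the central 40%). Its difference from other chromosomes passed in 10 of 12, but not with the central 40% (2.61 points) or without replicate 1 (7.59 to 10.9 over the single lists). The number relative to span did not pass without III (0.941) or in single lists (0.919 to 0.922). The left share of arm peaks did not pass with q under 0.001 (53.6%), 1 peak per run (58.6%) or the stronger 50% (51.3%), and was 48% to 51.9% in single lists. Differences from other chromosomes that had not passed changed sign as follows, in points. Peaks in both replicates were at -0.23 with 50% overlap, -0.60 without X and -0.80 without I, and peaks in neither at 1.40 without I. Strong peaks were at -0.046 without X and -0.14 to 2.45 in single lists. Short peaks were at -0.28 with q under 0.001, -1.62 in the stronger 50% and -1.67 to 3.02 in single lists. Wide peaks were at 0.49 with 1 peak per run and -1.51 to 0.22 in single lists, and close neighbours at -0.31 to 1.36 there. Between centre and arms, peaks in both replicates were at -0.074 with 50% overlap and -3.17 with the central 40%, and peaks in neither at 1.03 with q under 0.001 and 2.73 in the stronger 50%. Strong peaks were at -0.99 with the central 40% and -0.86 to 4.04 in single lists, and wide peaks at -3.84 and -4 to 0.20. Close neighbours were at 0.17 in the stronger 50%, 10.3 to 15.6 in single lists and -16.4 with the central 40%, where alone the test was passed. The central share relative to III was at -0.63 with the central 40%. The cause of these changes was not tested. Leaving out the run of 9 peaks or peaks shorter than 50 bp, both chosen after seeing the data, changed no call. No paired analysis was possible because the inputs, which share replicate numbers with the ChIP libraries, gave no values here.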

Other observations

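Along V the lists differed most in the window from 10 to 11 Mb, which held 28 combined peaks and 14 of replicate 1 but 1 of replicate 2. The window from 5 to 6 Mb held 19, 12 and 3, and that from 1 to 2 Mb held 24, 11 and 3. Over the 20 full windows of V, replicate counts had a Spearman's rho of 0.79, given as a description, since neighbouring windows are not independent. No gap between combined peaks on V was shorter than 201 bp, and the shortest was 218 bp in replicate 1 and 206 bp in replicate 2. The other chromosomes had nearly the same shortest gaps, 200 bp (combined), 200 bp (replicate 1) and 215 bp (replicate 2). Widths of 191 to 200 bp were given to 30 combined peaks on V, next to 15 of 181 to 190 bp and 4 of 201 to 210 bp. On the other chromosomes these numbers were 113, 63 and 30.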
